A study of Saccharomyces cerevisiae with 24 samples.

Results

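The genes examined here are 10 yeast genes of phosphate uptake, scavenging and storage: the transporters PHO84 (locus tag YML123C) and PHO89 (YBR296C), the secreted acid phosphatases PHO5 (YBR093C), PHO3 (YBR092C), PHO11 (YAR071W) and PHO12 (YHR215W), the small regulator SPL2 (YHR136C), the polyphosphate synthesis subunits VTC1 (YER072W) and VTC3 (YPL019C), and PHM6 (YDR281C). They were picked by name and found by their locus tags in 7 of the 5564 rows of the expression table. Of these rows, 6 hold 1 gene each, and the 4 acid phosphatases share 1 row in which their reads were counted together. All 7 rows passed the filter on low values (a mean of at least 10 RPKM over all libraries), as did 4383 rows of the table in all.

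Budding yeast takes up inorganic phosphate through low-affinity and high-affinity transporters and stores it in the vacuole as polyphosphate. When phosphate is scarce, the kinase complex Pho80-Pho85 is inhibited by Pho81, and the transcription factor Pho4 then switches on the PHO regulon. That regulon includes high-affinity transporters, secreted phosphatases that free phosphate from organic compounds, and subunits of the vacuolar transporter chaperone (VTC) complex, which makes polyphosphate.

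The data are ribosome footprints, the pieces of mRNA left after RNase digestion because a ribosome covered them, from 23 libraries of 80S ribosomes of strain BY4741. The unit of every level below is RPKM, reads per kilobase of frame per 10 to the power of 6 reads, so levels of different genes are compared per length. A footprint level joins the amount of mRNA and the ribosomes on it, and these cannot be told apart here. Nor can a change in all cells be told apart from one in a fraction of the culture.

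Unstressed cells grew in YPD, a rich medium of yeast extract, peptone and dextrose, at 30 °C. Their libraries comprised 1 without cycloheximide in the medium, 5 at rising doses from x1/64 to x8, where x1 is 100 μg/ml, and 2 at x100. Oxidative stress (0.2 mM hydrogen peroxide for 30 min in YPD) was profiled in a like series of 8 libraries. Heat shock (YPD at 42 °C for 20 min) had 1 library without the drug and 1 at x1. Synthetic SD medium had 3 libraries, all without the drug in the medium: the complete medium with its amino acid supplement, SD lacking amino acids, to which SD-grown cells were moved for 20 min, and the same with histidine, methionine and leucine added. A further 2 libraries came from unstressed YPD cells lysed in the presence of edeine or aurintricarboxylic acid, inhibitors that were not in the medium. Edeine was also in the sucrose buffers. With aurintricarboxylic acid, polysomes and monosomes were collected together from the gradient, and RNase I was applied only afterwards. That library therefore differs from the others in its digestion as well as in the inhibitor. The lysis buffer itself held cycloheximide. The growth field of the sample labels gives YPD for every sample, while the titles and the study's methods give SD for these 3, which were taken as SD. No phosphate concentration of either medium was measured in the data used here.

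Depth ranged from 1.92 to 27.9 M reads per library (M, 10 to the power of 6). The deleted marker genes LEU2, MET17 and URA3 of BY4741 were at 0 RPKM in all 23 libraries. HIS3, a marker that is disrupted in this strain, was at 17.5 to 507 RPKM. Each condition other than x100 had 1 library, nothing in the sources states separate cultures except for the x100 repeats, and p-values measure the spread between the libraries entered. The libraries were made with 2 primer sets, which are given beside the results they touch. In the dose series the stresses share a primer set at each dose except x1 and x8, where the unstressed libraries are of set 1 and the stressed ones of set 2.

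In unstressed YPD cells without the drug, VTC1 and PHO84 were the most abundant of the 7 rows at 1461 and 1178 RPKM, higher than 97.9% and 97.5% of the rows of that library. VTC3 followed at 290.0 RPKM, the acid phosphatases at 261, SPL2 at 161 and PHO89 at 138, and PHM6 was lowest at 42.03. Counting error was small beside these steps, with 252 reads for PHM6 and 54658 for PHO84. Each of the 7 rows was higher in this library than in the unstressed YPD libraries lysed with edeine or aurintricarboxylic acid. The order of the lower rows differed in those libraries. PHO89 was lowest there, at 11.8 and 4.17 RPKM, below PHM6 at 23.7 and 24.1. SPL2, at 117 and 104 RPKM, stood above the acid phosphatases at 88.6 and 97.4. All 7 rows together took 0.473% of the reads of the unstressed library without drug or lysate inhibitor. They took 0.225 to 0.267% of the reads in the other unstressed YPD libraries, 0.0515% in complete SD and 0.0224% in heat-shocked cells at x1.

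**Figure D1:**
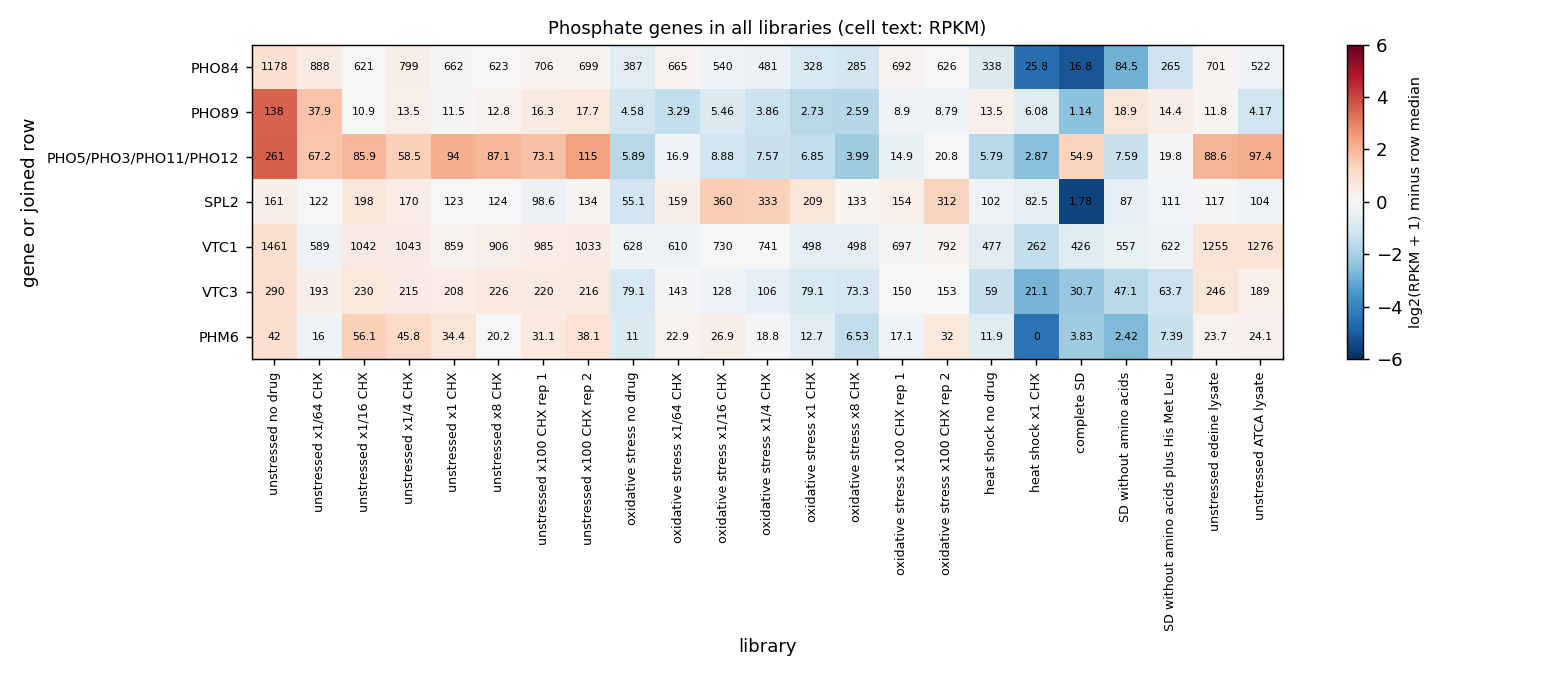
RPKM of the 7 rows (vertical axis) in each of the 23 libraries (horizontal axis), with the RPKM printed in each cell and the colour giving log2(RPKM + 1) minus the row's median over the libraries. The darkest blue cells lie in complete SD (PHO84 at 16.8 and SPL2 at 1.78 RPKM) and in heat shock at x1 (PHO84 at 25.8 and PHM6 at 0 RPKM).

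The comparison of YPD with SD asks how these genes differ between a rich and a synthetic medium. In drug-free cells all 7 rows had a lower mean log2 level in SD than in YPD. The PHO84, acid phosphatase, VTC1, VTC3 and PHM6 rows lay, in all 3 SD libraries, below each of the 3 unstressed drug-free YPD libraries. This makes 5 of 7 rows, where 7.83% of all tested rows lay wholly below. Complete SD held the lowest levels of PHO84 and SPL2, at least 31.1-fold and 58.5-fold below every drug-free unstressed YPD value. After amino acid withdrawal SPL2 stood at 87.0 and 111 RPKM, beside its lowest level of 104 in those YPD libraries, while PHO84 stayed below all 3 of them.

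PHO84, the proton-coupled high-affinity phosphate transporter of the plasma membrane, stood at 1178 RPKM in YPD without inhibitor, 701 with edeine in the lysate and 522 with aurintricarboxylic acid in the lysate. Its level was 16.8 RPKM (271 reads) in complete SD, 84.5 in SD lacking amino acids and 265 with histidine, methionine and leucine added. The 2 groups did not overlap, and the SD libraries spread over 15.8-fold. Complete SD was 70.2-fold below YPD without inhibitor (95% interval 62.3 to 79.4, counting error only), the second largest fall of the 4383 rows between these libraries. It was 41.8-fold and 31.1-fold below the edeine and aurintricarboxylic acid libraries. In complete SD PHO84 exceeded 43.4% of the rows, against 97.5% in YPD.

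PHO89, the sodium-coupled high-affinity transporter, was at 138, 11.8 and 4.17 RPKM in the same order of YPD libraries. In SD it was at 1.14 RPKM (18 reads) in complete SD, 18.9 after amino acid withdrawal and 14.4 with the 3 restored. The groups overlapped, and only complete SD lay below all YPD libraries. The YPD values themselves differed more than those of any other tested row, by 26.9-fold on the RPKM + 1 scale, where the median row differed by 1.34-fold and 6.78% of rows by at least 2-fold. Complete SD was accordingly 121-fold (76.6 to 205) below YPD without inhibitor but 3.65-fold below the aurintricarboxylic acid library, and with the former library left out the log2 difference between the media was 0.09.

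PHO5, PHO11 and PHO12 encode secreted acid phosphatases that are repressed by phosphate, and PHO3 encodes one that is repressed by thiamine. All 4 frames are of equal length (1404 nt). Of 156 low values in rows joined from frames of equal length, 100% were whole reads over the summed length. Over 1 frame length 46.8% were whole. The level of the joined row was therefore taken as a mean over the frames. It does not show which gene the reads came from. PHO3 and PHO5 are direct neighbours on chromosome II. The row was at 261, 88.6 and 97.4 RPKM in YPD and at 54.9, 7.59 and 19.8 in complete SD, SD without amino acids and SD with the 3 amino acids. Here the complete medium was the highest of the SD libraries, 1.61-fold below the lowest YPD value, while the library without amino acids was the lowest. PHO84, in contrast, was lowest in complete SD.

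SPL2, a small protein that lowers low-affinity phosphate uptake in phosphate-starved cells, was at 161, 117 and 104 RPKM in YPD. It had 6 reads in complete SD, which gives 1.78 RPKM (0.654 to 3.88), and was at 87.0 and 111 RPKM in the other SD libraries. Complete SD stood alone, 90.3-fold (41.4 to 246) below YPD without inhibitor and 58.5-fold below the aurintricarboxylic acid library. The library without amino acids lay below the YPD range and that with the 3 amino acids within it.

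VTC1, the small membrane subunit of the VTC complex, was at 1461, 1255 and 1276 RPKM in YPD and at 426, 557 and 622 in SD. VTC3, another subunit of that complex, was at 290.0, 246 and 189 RPKM in YPD and at 30.7, 47.1 and 63.7 in SD. Both rows separated these SD and YPD libraries without overlap, with complete SD lowest. The fall from YPD without inhibitor to complete SD was 3.43-fold for VTC1 and 9.44-fold for VTC3, so the levels of these subunits, 5.04-fold apart in YPD, were 13.9-fold apart in complete SD. PHM6, a phosphate-regulated gene of unknown function, was at 42.03, 23.7 and 24.1 RPKM in YPD and at 3.83 (8 reads), 2.42 (1 read) and 7.39 RPKM in SD. Its groups did not overlap, but the order within SD was not detectable at these counts. In all, 6 of the 7 rows (all but VTC1) were at least 4-fold lower in complete SD than in YPD without inhibitor, as were 0.411% of all rows. Against the edeine library 5 of the 7 rows were (0.479% of all rows), and against the aurintricarboxylic acid library 4 were (0.433%).

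**Figure D2:**
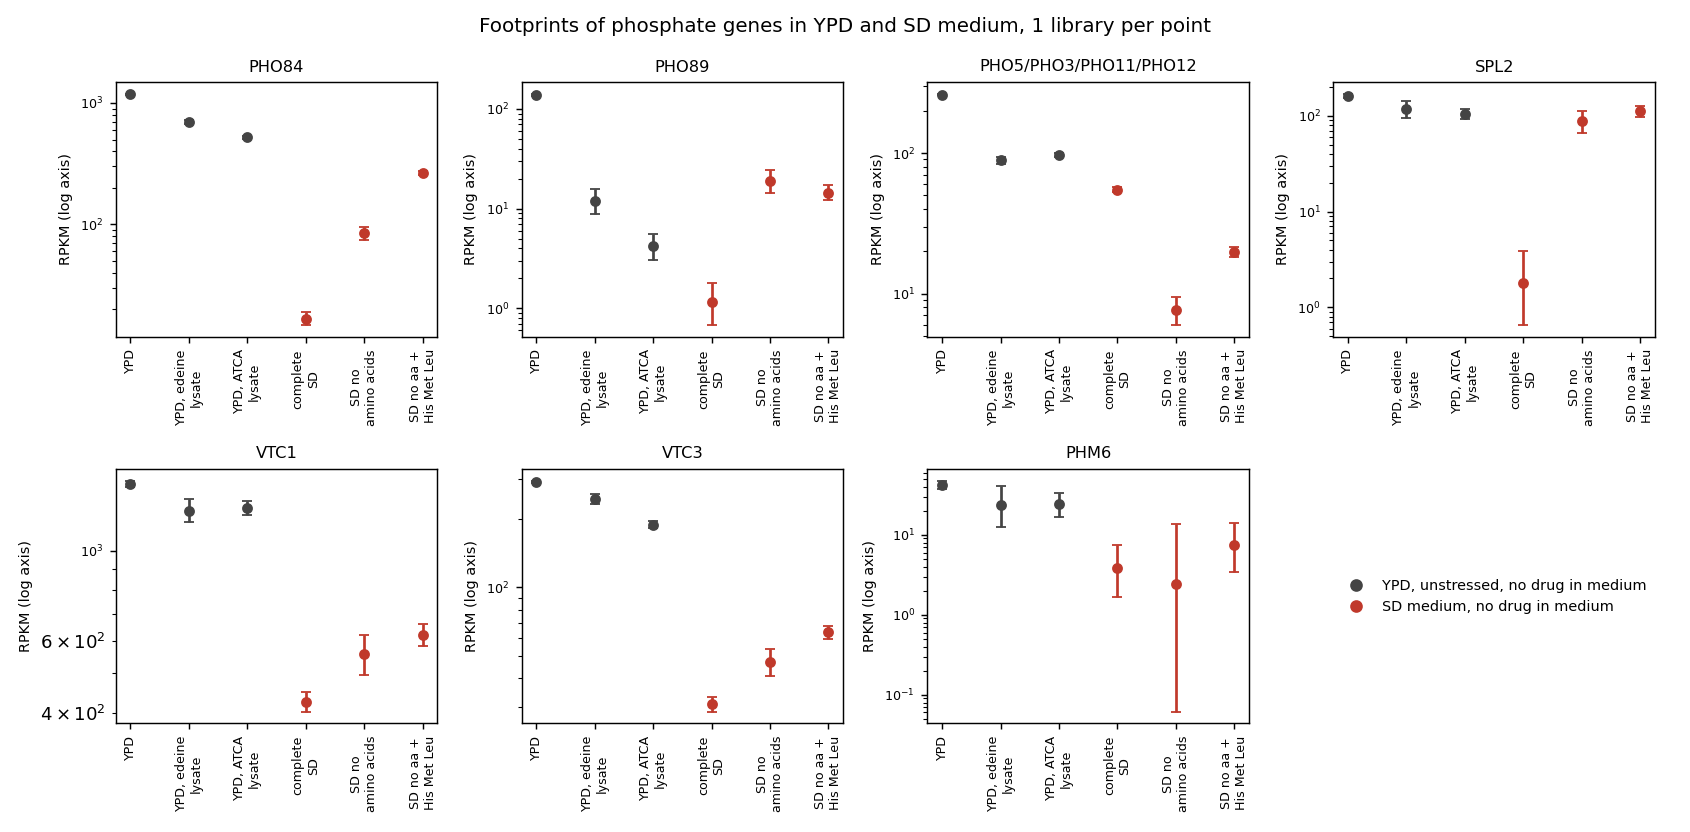
RPKM (log axis) of each row in the 3 drug-free unstressed YPD libraries (grey) and the 3 SD libraries (red), with 95% Poisson intervals of the reads. ATCA stands for aurintricarboxylic acid and aa for amino acids. The red points lie below every grey point in 5 of the 7 panels, and in the SPL2 panel only complete SD, at 1.78 RPKM, lies far below.

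With the 3 SD libraries taken as one group against the 3 YPD libraries, limma called 0 of the 7 rows and 0.0% of all 4383 rows at an adjusted p under 0.05. At an unadjusted p under 0.05, 5 of the 7 rows were lower, where 7.37% of all rows were lower and 1294 rows (29.5%) differed in either direction. The log2 difference, SD minus YPD, was -3.36 ± 0.93 (SE) for PHO84 with an adjusted p of 0.166 in limma. It was -2.37 ± 0.38 for VTC3 and -2.53 ± 0.44 for PHM6, both with an adjusted p of 0.151, and -1.27 ± 1.34 for PHO89 with an adjusted p of 0.471. The median of the 7 rows was -2.37, and that of all tested rows was 0.58.

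The SD libraries hold cells in different states, and the test turned on which of them entered. Complete SD alone against the same YPD libraries gave 5 of the 7 rows lower (PHO84, SPL2, VTC1, VTC3 and PHM6), beside 0.616% of all rows lower, or 27 rows. In this fit the single SD library is assumed to vary as the YPD libraries do. The log2 difference was -5.41 ± 0.40 for PHO84 (limma, adjusted p = 2.3e-05), -5.50 ± 0.32 for SPL2 (adjusted p = 2.1e-06) and -2.91 ± 0.31 for VTC3 (adjusted p = 0.000286). In the order of all rows from the lowest these stood at ranks 4, 3 and 13. PHO89, at -3.29 ± 1.22, and the acid phosphatases, at -1.24 ± 0.50, did not pass with adjusted p-values of 0.288 and 0.37 in limma.

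Without complete SD, the remaining SD libraries against YPD gave 2680 called rows, 14.1% of all rows lower. The 5 of the 7 rows called lower were then PHO84 (-2.33 ± 0.54), the acid phosphatases (-3.30 ± 0.57), VTC1, VTC3 and PHM6. SPL2 was not among them. The 3 YPD libraries, complete SD and SD without amino acids were made with primer set 1 and the library with the 3 amino acids with set 2. Within set 1 all 7 rows remained uncalled by the adjusted test, as in the fit of all 6 libraries, and 5 of the 7 again differed at an unadjusted p under 0.05.

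Of 28 other genes of phosphate signalling, transport and storage, 26 had a row that was tested, and 0 were called in SD against YPD by limma (0.0% of all rows), with a median log2 difference of 0.37. Complete SD alone gave PHO81, the inhibitor of the Pho80-Pho85 kinase, and VTC4, the catalytic subunit of the VTC complex, as lower. PHO81 stood at 26.4, 16.6 and 19.8 RPKM in YPD and at 6.83 in complete SD (log2 difference -1.46 ± 0.32, limma adjusted p = 0.0256). VTC4 stood at 299, 202 and 211 RPKM in YPD and at 65.5 in complete SD (-1.82 ± 0.31, adjusted p = 0.00612 in limma). Called higher were 3 of the 26, beside 2.78% of all rows: PHO87, a low-affinity phosphate transporter, from 5.70, 5.73 and 8.85 RPKM to 20.4, the mitochondrial phosphate carrier PIC2, from 3.53, 2.93 and 3.77 RPKM to 14.9, and PHM7, whose YPD levels were at most 0.1 RPKM and which stood at 2.83 in complete SD. PHO4 was at 44.1 RPKM in complete SD and at 41.5 to 44.0 in the YPD libraries. Without complete SD, neither PHO81 (-0.33 ± 0.30, limma adjusted p = 0.354) nor VTC4 (-0.57 ± 0.29, limma adjusted p = 0.123) was called. In that fit 4 signalling rows were higher and 0 lower. The other transporters had 2 higher and 3 lower, and storage and release 5 higher and 1 lower. Of 18 genes linked to thiamine, counted because PHO3 responds to thiamine, only 4 rows were abundant enough to test. These include a row of joined pyruvate decarboxylase genes. With the 3 SD libraries together limma called 0 of the 4. Without complete SD it called 2 higher and 1 lower, where 2064 rows of the table were higher and 616 lower.

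Amino acid withdrawal within SD was compared between single libraries, so these ratios have no replicate check. The study's methods describe filtering these cells and moving them to fresh medium without the amino acids and other supplements. No such step is described for complete SD, so amino acids, the other supplements and handling cannot be told apart. Against complete SD, the library without amino acids was 48.9-fold higher (95% interval 21.1 to 138, counting error only) for SPL2, 16.6-fold higher (9.63 to 29.8) for PHO89 and 5.04-fold higher (4.24 to 5.98) for PHO84. These 3 of the 7 rows passed 4-fold, as did 19.9% of all rows, and the median row was itself 1.83-fold higher. After scaling to the median row PHO84 was 2.64-fold higher and no longer passed 4-fold, while SPL2 (25.6-fold) and PHO89 (8.67-fold) did. The share of all rows past 4-fold after scaling was not computed. The acid phosphatase row went the other way and was 7.23-fold lower, past the 4-fold mark that 8.42% of all rows passed downwards. VTC1 and VTC3 were 1.31-fold and 1.54-fold higher as deposited but lower, at 0.684 and 0.804, once both libraries were scaled to their median row.

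With histidine, methionine and leucine added, PHO84 was 15.8-fold (13.9 to 17.9), PHO89 12.7-fold and SPL2 62.5-fold (28.3 to 172) above complete SD, while 7.62% of all rows rose by 4-fold or more. The median row was itself 1.46-fold above complete SD. PHO84 was 3.13-fold higher with the 3 amino acids than without any, where the median row stood at 0.828. The library with the 3 amino acids was made with primer set 2, complete SD and SD without amino acids with set 1. In both contrasts the added amino acids and the primer set cannot be told apart. The acid phosphatases remained 2.77-fold below complete SD. All 7 rows were still below their level in YPD without inhibitor, with PHO84 at 265 against 1178 RPKM.

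The dose series asks whether oxidative stress changed these genes and whether cycloheximide in the medium changed the answer. The acid phosphatase row changed most: it was at 58.5 to 261 RPKM (median 86.5) in the 8 unstressed libraries and at 3.99 to 20.8 (median 8.22) under hydrogen peroxide. The series did not overlap. The log2 difference, stressed minus unstressed with the dose as a block, was -3.19 ± 0.31 (limma, adjusted p = 7.5e-07), or 9.10-fold lower. Without the drug it was 44.3-fold (261 against 5.89 RPKM).

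Of the 7 rows, 6 were lower under oxidative stress by limma, where 22.7% of all rows were lower and 62.9% higher. Of all calls 73.5% were higher, and 50.4% after each library was centred on its median row, since the median of all rows was shifted by 0.54. The same 6 rows were called lower after centring and with the primer set as a term. PHO89 ranged from 10.9 to 138 RPKM (median 14.9) unstressed and from 2.59 to 8.90 (median 4.22) stressed, with a log2 difference of -1.96 ± 0.36 (limma adjusted p = 0.000238). VTC3 ranged from 193 to 290.0 RPKM (median 218) and from 73.3 to 153 (median 117), a difference of -1.02 ± 0.16 (limma adjusted p = 4.8e-05). These rows and the acid phosphatases, 3 of 7, were lower in every stressed than in every unstressed library, as were 12.4% of all rows.

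PHO84, VTC1 and PHM6 fell by less, and their series overlapped. PHO84 ranged from 621 to 1178 RPKM (median 702) unstressed and from 285 to 692 (median 510.5) stressed, a log2 difference of -0.66 ± 0.16 (adjusted p = 0.00194 in limma). The difference was 3.04-fold without the drug, 1.15-fold at x1/16, 2.02-fold at x1 and 2.19-fold at x8, the last 2 of which also compare different primer sets. VTC1 differed by -0.59 ± 0.12 and PHM6 by -0.95 ± 0.23, with adjusted p-values of 0.000448 and 0.00172 in limma. SPL2 was 2.92-fold lower under stress without the drug (55.1 against 161 RPKM, single libraries) but was not lower at any dose of it. Below x100 its ratios ran from 1.07 at x8 (across primer sets, 95% interval 0.925 to 1.24, counting error only) to 1.96 at x1/4 (333 against 170.2 RPKM). Its log2 difference over all doses was 0.42 ± 0.26 (limma adjusted p = 0.146), which turned to -0.11 after centring. With the drug-free libraries left out it was 0.70 ± 0.17 (limma adjusted p = 0.0025), or 0.20 ± 0.17 after centring (limma adjusted p = 0.311). The difference between drug-free and treated cells was itself not tested.

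At x100, the dose with 2 libraries for each stress, PHO84 was at 706 and 699 RPKM unstressed and at 692 and 626 stressed, a log2 difference of -0.09 ± 0.11 (limma adjusted p = 0.466) that became a called one of -0.62 once libraries were centred on their median row. The acid phosphatases were at 73.1 and 115 RPKM unstressed and at 14.9 and 20.8 stressed. PHO89 was at 16.3 and 17.7 RPKM and at 8.90 and 8.79. Both stressed values were below both unstressed ones for all 3 rows, by little for PHO84. By limma 4 of the 7 rows were lower at this dose, against 18.4% of all rows (75.5% of all calls were higher, and 48.9% after centring): the acid phosphatases (-2.32 ± 0.26, adjusted p = 0.000643), PHO89 (-0.87 ± 0.11), VTC1 (-0.44 ± 0.12) and VTC3 (-0.52 ± 0.10). After centring PHO84 (-0.62 ± 0.11, limma adjusted p = 0.00452) and PHM6 (-1.06 ± 0.30, limma adjusted p = 0.0244) were called too, 6 of the 7 rows, against 33.5% of all rows lower. SPL2 was at 98.6 and 134 RPKM unstressed and at 154 and 312 stressed (0.93 ± 0.35, adjusted p = 0.055 in limma).

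**Figure D3:**
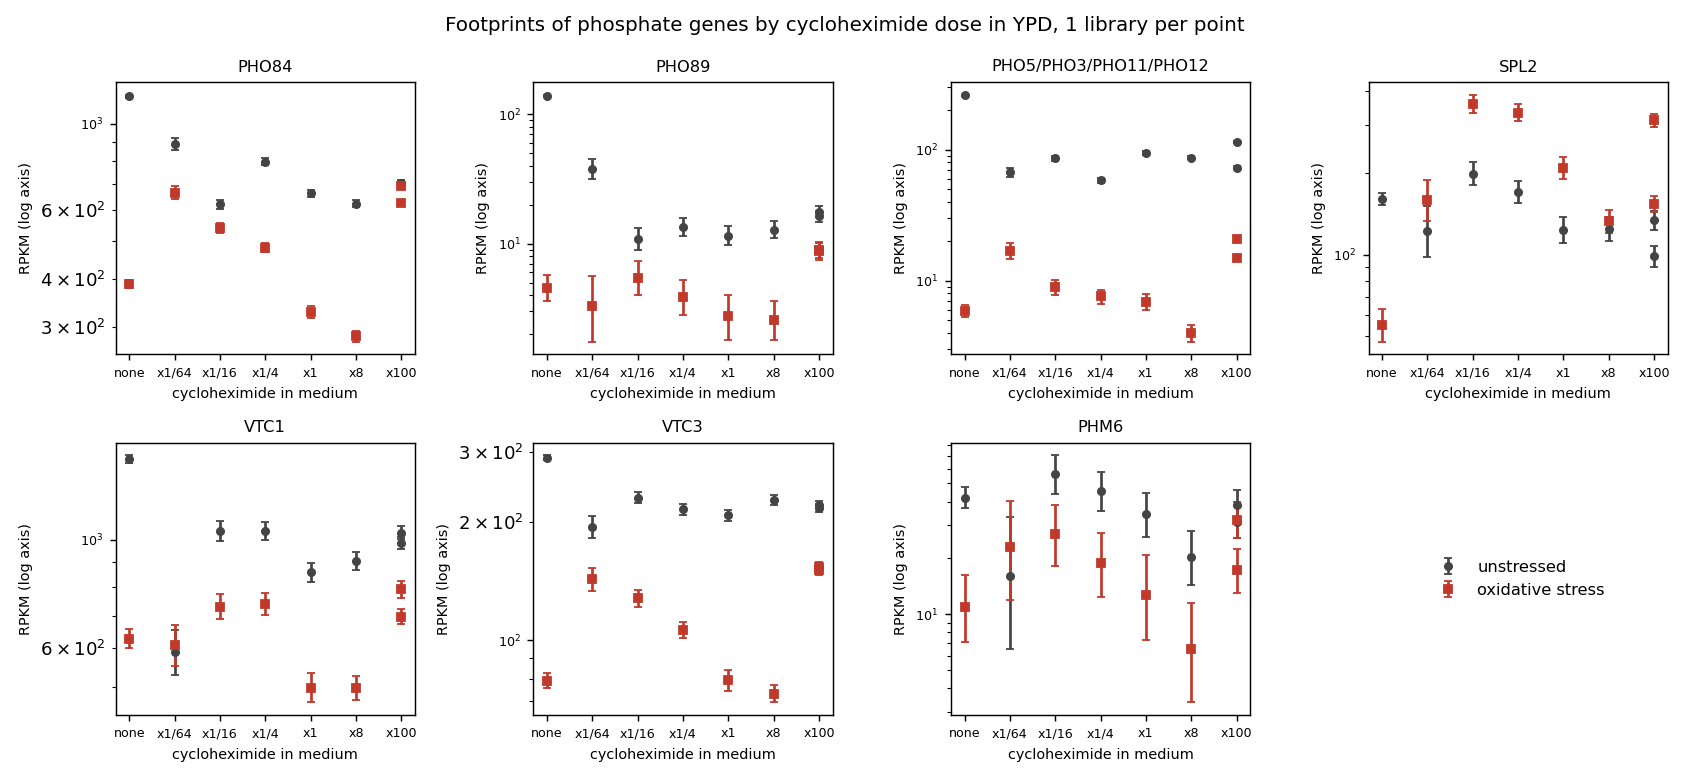
RPKM (log axis) of each row against the cycloheximide dose in the medium, in unstressed (grey circles) and oxidatively stressed (red squares) cells, 1 library per point with 95% Poisson intervals of the reads. The red squares of PHO84 lie at 285 RPKM at x8 and at 626 and 692 at x100. The grey drug-free point is the highest unstressed point for PHO84, PHO89, the acid phosphatases, VTC1 and VTC3.

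Along the dose, from x1/64 to x100 in 14 libraries, limma called 0 of the 7 rows (1 at an unadjusted p under 0.05, VTC1), beside 23.2% of all rows (18.0% of these calls were rising, and 54.0% after centring). PHO84 in stressed cells was at 665, 540.1, 481, 328 and 285 RPKM over the 5 doses from x1/64 up to x8, and then at 692 and 626 RPKM in the x100 libraries, with primer set 1 at x1/16 and x1/4 and set 2 at the other doses. The x100 values thus lay above those at x1/16 to x8 and beside that at x1/64. Without x100 the slope of PHO84 was -0.31 log2 units per 10-fold dose (limma adjusted p = 0.0262) and that of PHM6 was -0.42 (limma adjusted p = 0.041). Thus 2 of the 7 rows fell, beside 16.4% of all rows. Most calls of that fit were falls, with 717 rows falling and 28 rising. The median slope of all rows was -0.11, and no centred fit was made without x100. The study's methods apply x100 to filtered and resuspended cells, unlike the lower doses, so dose and handling cannot be told apart there. The interaction of dose and stress was called by limma in 0 of the 7 rows and in 0.0% of all rows, with 235 of 4383 rows and 0 of the 7 at an unadjusted p under 0.05.

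Most of these genes were lower in heat-shocked cells. The acid phosphatase row was at 261 and 94.0 RPKM in unstressed cells without the drug and at x1, and at 5.79 and 2.87 in heat-shocked cells, or 45.0-fold and 32.7-fold lower. PHO84 was at 1178 and 662 RPKM unstressed and at 338 and 25.8 heat-shocked. The PHO84 difference was 3.49-fold without the drug and 25.7-fold at x1, each between single libraries, and whether these differ was not tested. Within heat shock, x1 was 13.1-fold (10.9 to 15.9, counting error only) below no drug for PHO84, the fifth largest fall of 4383 rows between these libraries, while SPL2 differed by 1.24-fold and the median row stood at 0.739 of its level without the drug.

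By limma with the drug as a block 6 of the 7 rows were lower, beside 29.6% of all rows (37.3% of all calls were higher, and 50.8% after centring, with the same 6 rows lower). The acid phosphatases differed by -4.94 (adjusted p = 1.9e-32), PHO84 by -3.21 (1.6e-14), VTC3 by -2.76 and VTC1 by -1.66 log2 units, each with an SE of 0.40, which limma set alike for every row at this number of libraries. These adjusted p-values therefore rest on the spread of all rows together. VTC3 was at 290.0 and 208 RPKM unstressed and at 59.0 and 21.1 heat-shocked, and VTC1 at 1461 and 859 and at 477 and 262. PHM6 had 56 reads in unstressed cells at x1 (34.4 RPKM) and 0 reads in heat-shocked cells at x1, at least 7.25-fold lower against a limit of 3 reads.

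PHO89 was at 138 and 11.5 RPKM unstressed and at 13.5 and 6.08 after heat shock, so its groups overlapped and its difference (-2.04) rested on the drug-free unstressed library. Without the drug block it did not pass (limma adjusted p = 0.141). SPL2, at 161 and 123 RPKM unstressed and 102 and 82.5 heat-shocked, differed by -0.61 (limma adjusted p = 0.208). All 7 rows but PHO89 lay wholly below in heat shock, as did 45.3% of all rows. Primer set 2 served for each heat-shock library and set 1 for each unstressed one. The study's methods also filtered the cells and moved them to a new flask for heat shock, a step not described for unstressed cells. Heat shock, primer set and this handling cannot be told apart.

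**Figure D4:**
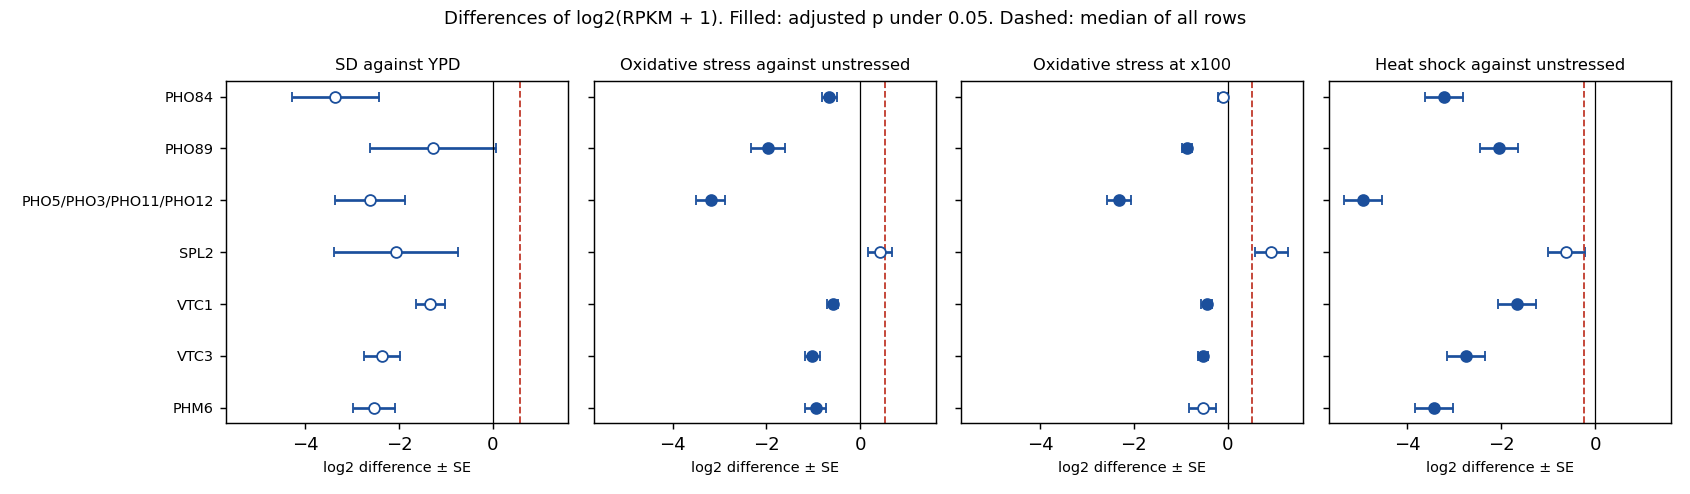
Log2 differences of RPKM + 1 with their standard errors (horizontal axis) for the 7 rows (vertical axis) in 4 comparisons by limma, with filled points for an adjusted p under 0.05 and the median of all tested rows as a dashed line. No point is filled for SD against YPD, 6 are filled for oxidative stress and for heat shock and 4 at x100, and the SPL2 point for oxidative stress changes sign, from 0.42 to -0.11, when libraries are centred on their median row.

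Of the 26 other phosphate rows tested, 10 were higher and 6 lower under oxidative stress by limma, where 62.9% of all rows were higher and 22.7% lower. In heat shock 3 were higher and 12 lower, where 17.6% of all rows were higher and 29.6% lower. Across the 23 libraries, the levels most like that of PHO84 on the log2(RPKM + 1) scale were those of VTC3 (Pearson's r = 0.91), VTC4 (0.88), PHM6 (0.87), PHO86 (0.87) and PHO81 (0.79). PHO86 encodes a protein that PHO84 needs to leave the endoplasmic reticulum. These were the first 5 of the other 4382 rows, with VTC1 at rank 8 and SPL2 at rank 12. PHO89 (r = 0.46, rank 591) and the acid phosphatases (r = 0.44, rank 670) were far less like it. The libraries share conditions and differ in depth, so these correlations describe this set of libraries only. Among the 7 rows r ranged from -0.10 between SPL2 and the acid phosphatases to 0.92 between PHM6 and VTC3.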

How the data were processed

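Ribosome footprints of BY4741 were profiled in 23 libraries of 80S ribosomes. The sample of 40S subunits was not analysed here. RPKM values were computed by the authors from reads aligned with Bowtie v. 0.12.7 and counted with their own code. Which build version served, what the total holds and how multiply aligned reads were handled are not given in the sources used here. No column of the table was left out, and 5446 rows with 1 locus tag were matched to RefSeq names.

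RPKM values multiplied by frame length, less 98 to 100 nt, gave whole reads within 0.1 for 97.4 to 98.8% of low values, which gave depth (1.92 to 27.9 M reads, median 6.93 M) and 95% Poisson intervals that cover counting error only.

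Rows with a mean of at least 10 RPKM were tested as log2(RPKM + 1) by limma 3.58.1 in R 4.3.3, with two-sided moderated tests and Benjamini-Hochberg adjustment over all 4383 rows at 0.05. Folds on this scale understate changes of low rows. The fits were SD against drug-free unstressed YPD (3 against 3 libraries), oxidative stress with the dose as a block (8 against 8) and at x100 (2 against 2), heat shock with the drug as a block (2 against 2), and the dose trend and its interaction with stress, with primer set as a term (14 libraries). Single libraries were compared as ratios. The tests were tested on simulated data with known changes.

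The members, the lists of other genes and the comparisons were chosen with earlier results of these data known. The text names the members, and of the lists those called against YPD, which with 0 such calls fell to complete SD alone and was chosen after its values were seen, with PHO4, and the 5 rows most like PHO84. Alternatives were pseudocounts of 0.1 and 10, no filter and a filter at 30 RPKM, centring on the median row, a trended prior, other terms, and leaving out libraries or doses. Figures were drawn with matplotlib 3.10.9 under Python 3.11.15, and reads and intervals were computed with pandas 2.3.3 and scipy 1.17.1.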

Additional observations from a re-analysis of the deposited data

Results flagged for a closer look

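In 14 groups of 8 libraries (7 rows in the unstressed and in the oxidative dose series), the highest or lowest library stood apart from the rest in 3, by a gap to the next library that exceeded Dixon's 95% critical share of the whole range. The gaps were taken on the RPKM scale, not on the log2 scale of the tests. Chance gives about 1 in 20 for independent libraries of 1 condition. These groups mix doses and share libraries, so that rate does not apply to them. All 3 concerned the unstressed library without the drug. PHO89 was at 138 RPKM there and at 37.9 in the next highest library, x1/64 (a gap of 0.788 of the range). The acid phosphatase row was at 260.8 RPKM against 115 in the second x100 library (0.72). VTC3 was at 290.0 RPKM against 230.0 at x1/16 (0.621). This library was the deepest of all and made with primer set 1, and whether these differences belong to the missing drug or to this culture was not tested. The unstressed libraries with edeine and aurintricarboxylic acid in the lysate, also without drug in the medium, were at 11.8 and 4.17 RPKM for PHO89 and at 88.6 and 97.4 RPKM for the acid phosphatases.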

How the results depend on the processing

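The SD against YPD comparison depended most on its libraries. Leaving out 1 library at a time gave 0 to 5 of the 7 rows and 0 to 2680 rows of the table, the highest without complete SD, and 1 row without the library lacking amino acids. Complete SD alone gave 5 and 149. A pseudocount of 10 gave 3 rows of the table, a filter at 30 RPKM 5, and centring 1. The log2 difference of PHO89 turned to 0.09 without the drug-free unstressed library.

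A filter at 30 RPKM drops PHO89 and PHM6 and leaves 2691 rows tested. Of these, 2346 were called for oxidative stress, 2062 at x100 and 419 for the dose trend. The dose trend called 1 of the 7 rows after centring (VTC1) and 2 without x100 (PHO84 and PHM6, beside 717 falling rows of the table), where the slope of PHM6 turned from 0.04 to -0.42. For heat shock, leaving out 1 library, without the drug block since no residual freedom is left with it, gave 4 to 6 of the 7 rows and 1016 to 2722 rows, with 1177 when the unstressed x1 library was left out. PHO89 passed in 1 of these 4 fits, and VTC1 did not pass without the drug-free unstressed library. After scaling to the median row, 3 rather than 5 of the 7 rows were higher without amino acids than in complete SD.

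With the replicate block at x100 all rows but PHO84 were called, 6 of 7, of 3422 called in all. Deviations of same-numbered libraries correlated with r = 0.43 over 4383 rows, but 2 pairs do not show that the numbers pair the libraries. Leaving out 1 x100 library gave 3 to 5 of the 7 rows and 2648 to 3277 in all. Over all settings, the value for a member stayed on its side of the threshold in 485 cases, passed newly in 19, was lost in 8 and turned in 1. The causes were not tested. Depth limits PHM6 (0 to 252 reads), and PHO89 and SPL2 in complete SD (18 and 6 reads).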
